A study of Mus musculus with 2 samples.

Results

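The cells described here are Cd209a conventional type 2 dendritic cells (cDC2) of a mouse melanoma, 121 of the 4236 cells kept, or 2.86% of them (exact Clopper-Pearson 95% interval 2.38% to 3.40%). They were chosen by their own counts. A cell needed at least 5 unique molecular identifiers (UMIs, 1 per captured mRNA molecule) of Cd209a, Kmo and Flt3 together. It also needed fewer than 3 UMIs of Xcr1 and Clec9a, fewer than 5 of Ccr7 and Fscn1, fewer than 3 of the CD3 genes Cd3d, Cd3e and Cd3g, and less than 2000 CPM (UMIs scaled to a total of 1000000 gene UMIs) of the C1q genes C1qa, C1qb and C1qc. Of 184 cells that passed the first condition, the Xcr1 and Clec9a limit removed 30, and the Ccr7 and Fscn1, CD3 and C1q limits removed 11 each in turn. Levels of all these genes in the members follow from the choice and are given as description only.

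The tumour grew from B78ChOVA cells, a mouse melanoma line given under the skin of the flank in PBS and growth factor reduced Matrigel and collected after 16 days. The labels call the cells immune and the tissue skin, and do not state the strain, genotype, sex, age or number of mice. Live sections were marked with spatial DNA barcodes, named ZC1, ZC2 and ZC3, then dissociated, sorted and encapsulated in droplets. Both samples are libraries of the same cells, 1 of mRNA and 1 of spatial barcodes. With 1 library of cells and no replicate, no test was made, and every interval below is a 95% interval that covers counting error only and not differences between tumours.

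cDC2 are antigen-presenting cells that arise from bone marrow precursors under the growth factor Flt3 ligand. They take up antigen in tissue, carry it to lymph nodes and present it on MHC class II molecules, chiefly to CD4 T cells. They share many surface proteins with monocytes and macrophages, and the transcription factor Zbtb46 and the precursor-derived receptors Flt3 and Kit are used to tell them apart in mouse.

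The members were set beside 435 monocytes, taken as cells with at least 100 CPM of Ly6c2 and 300 CPM of Ccr2, and 2253 macrophages, taken as cells with at least 5000 CPM of C1q genes. Both sets held fewer than 3 CD3 UMIs and no member, and 197 cells that met both limits were left out of both. The members had between 6763 and 51726 gene UMIs with a median of 16171, against a median of 11143 in the monocytes and 30056 in the macrophages. Free RNA was measured as the sum of 68497 barcodes with 10 to 100 UMIs. No doublet caller was used, so cells that share a droplet with another cell were removed only by the limits of the rule.

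Cd209a, a C-type lectin related to human DC-SIGN, was found in 109 members, Kmo, an enzyme of tryptophan breakdown, in 98, and Flt3, the receptor for Flt3 ligand, in 62. Cd209a gave the most of the 3 genes' UMIs in 89 members, Kmo in 21 and Flt3 in 6, with ties in 5. All 3 genes were found in 45 members, 2 of them in 58 and only 1 in 18. Cd209a reached 944 CPM over all members (905 to 985), against 4.53 CPM in monocytes and 0.448 CPM in macrophages, and free RNA held 14.6 CPM. Per member it ran from 0 through a median of 802 to 7838 CPM, so members differed widely in the gene that names them. At the edge of the rule, 19 members with 5 or 6 UMIs of the 3 genes had 888 CPM of Napsa and 416 CPM of H2-DMb2, beside 943 and 480 CPM in 33 cells with 3 or 4 UMIs that missed it.

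Napsa and H2-DMb2, the given markers that the rule did not use, were both higher in members. Napsa, an aspartic protease, ran from 162 through a median of 1014 to 3724 CPM per member, with UMIs in all 121 members. In monocytes it ran from 0 through 430 to 1952 CPM, and in macrophages from 0 through 0 to 1123 CPM. The ranges of single cells overlapped, and the summed level of 1138 CPM in members was 2.47 times that of monocytes (2.34 to 2.61) and 57.0 times that of macrophages (53.4 to 60.9). H2-DMb2, a chain of the class II chaperone H2-DM, reached 528 CPM in members, against 37.9 CPM in monocytes and 18.3 CPM in macrophages. After thinning each cell to 5000 UMIs, H2-DMb2 was found in 63.6% of members (54.4% to 72.2%), 11.0% of 428 monocytes and 8.15% of 2183 macrophages, with median depths before thinning of 16171, 11235 and 30561 UMIs. Without thinning the shares were 72.7%, 23.0% and 32.8%.

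**Figure D1:**
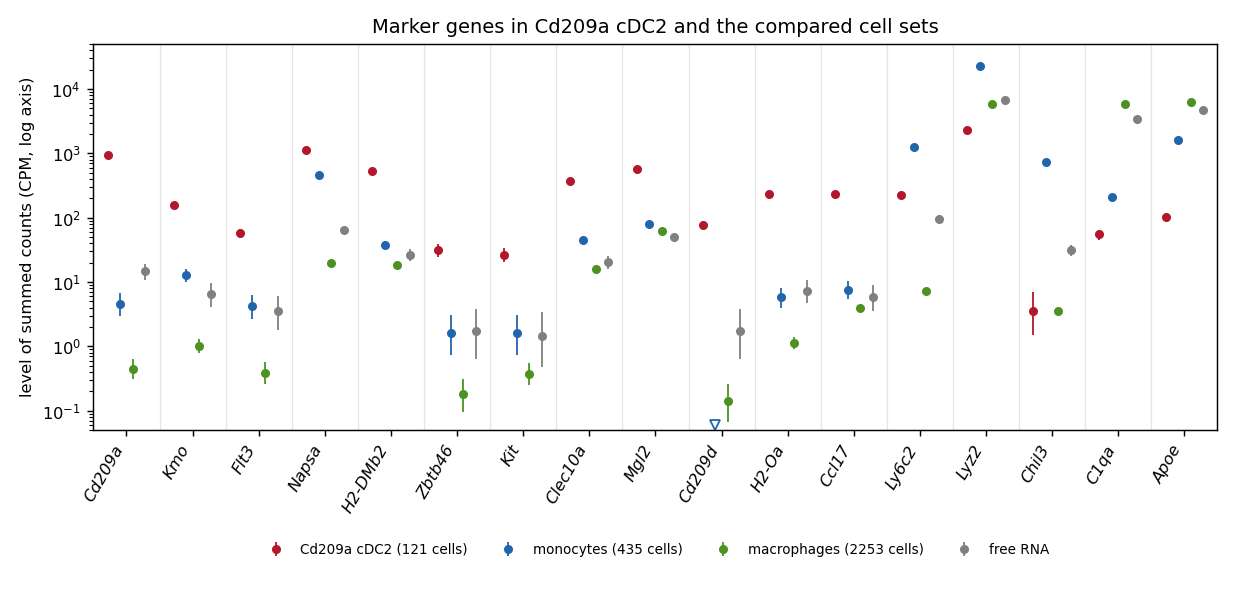
Level of 17 marker genes as CPM of summed counts on a log axis, for Cd209a cDC2, monocytes, macrophages and free RNA, with exact Poisson 95% intervals; the open triangle marks 0 UMIs. Cd209a cDC2 lie above both other sets for the genes from Cd209a to Ccl17, and below both for Lyz2, C1qa and Apoe.

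Conventional dendritic cell genes were mostly higher in the members. Of 13 listed genes, 10 were at least 2-fold higher than in monocytes and none was 2-fold lower, where 7.25% of 8857 genes measured were at least 2-fold higher. The list median was a log2 ratio of 1.84, against -0.04 for all genes. Of the 10 list genes measured against macrophages, 5 were at least 2-fold higher, where 8.16% of 10495 genes were, with a median of 2.81 against -0.18 for all genes. That median fell in a gap in the list, between Irf8 at 0.18 and Cbfa2t3 at 5.43, and became -0.21 with at least 10 rule UMIs and -0.43 without members that carried markers of other cells.

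Zbtb46, the transcription factor of conventional dendritic cells, had 31.4 CPM in members, against 1.63 CPM in monocytes and 0.182 CPM in macrophages, and 19.3 times the monocyte level (9.60 to 43.8). Its 71 UMIs came from 48 members, and no member had more than 4, so at this depth a member without a UMI cannot be told from one without the gene. Kit, the receptor for stem cell factor, had 26.6 CPM in members, against 1.63 CPM in monocytes and 0.378 CPM in macrophages. Spint2, a protease inhibitor, was 18.7 times the monocyte level (11.4 to 32.5) and Bcl11a, a transcription factor, had 78.4 CPM in members, against 8.71 CPM in monocytes and 0.350 CPM in macrophages. Dpp4 (CD26), a surface peptidase used to mark conventional dendritic cells, was 8.71 times the monocyte level and Btla, an inhibitory receptor of the CD28 family, 6.43 times. Cbfa2t3, a transcriptional corepressor, had 248 CPM in members, against 69.1 CPM in monocytes and 5.73 CPM in macrophages. Genes of the list that macrophages or monocytes also carried were closer. Itgax (CD11c) was 2.03 times the monocyte level and 0.937 times the macrophage level. Irf8 had 245 CPM in members, against 278 and 216 CPM. Of its UMIs in members, 239 came from 7 cells with Siglech, a gene of plasmacytoid dendritic cells, which are described below. The other 114 members held 314, or 145 CPM, which lies below both other sets.

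Among 18 cDC2 genes the picture was mixed, with 4 at least 2-fold higher and 3 at least 2-fold lower of 12 measured against monocytes (9.17% of all genes were 2-fold lower), and 6 higher and 4 lower of 11 measured against macrophages (16.5% of all genes were 2-fold lower). The lectins Clec10a and Mgl2, which bind galactose-type sugars, were high. Clec10a ran from 0 through 217 to 2525 CPM per member and reached 373 CPM in sum, against 44.6 CPM in monocytes and 16.1 CPM in macrophages. Mgl2 had 579 CPM in members, against 79.3 and 62.2 CPM, and was found in 65 members. Irf4, a transcription factor needed by cDC2 in mouse, was 2.35 times the monocyte level on 26 UMIs (1.32 to 4.19). Ltb, which encodes lymphotoxin beta, had 56.3 CPM in members, against 4.90 CPM in monocytes, but free RNA held 60.5 CPM, and with CD3-bearing cells left among the monocytes the log2 ratio of 3.52 became -0.20. Surface proteins shared with monocytes and macrophages were lower. Sirpa, the receptor for CD47, had 179 CPM in members, against 356 CPM in monocytes and 372 CPM in macrophages, and Itgam (CD11b) had 97.9 CPM, against 228 and 294 CPM. Cx3cr1, the fractalkine receptor, was 0.359 times the monocyte level. Esam and Dtx1 had no UMI in 121 members, and Clec4a4 had 1. The median log2 ratio of the cDC2 list was -0.28 against monocytes and 1.19 against macrophages. That of the cDC1 list was 0.26 and 1.11, with 4 of 10 genes higher and 1 lower against monocytes and 6 of 11 higher and 3 lower against macrophages, 1 and 2 of them genes the rule limited. Itgae (CD103) of that list had 49.2 CPM in members, against 4.17 CPM in monocytes and 0.532 CPM in macrophages.

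Other genes of the Cd209 family had more UMIs in the 121 members than in all monocytes or all macrophages. They lie beside Cd209a on chromosome 8 of GRCm38 (GENCODE M21), where Cd209a spans chr8:3743397-3748984 and Cd209d chr8:3871824-3878555, both on the minus strand. Cd209d had 175 UMIs and 77.5 CPM in 39 members, no UMI in 435 monocytes and 10 UMIs in 1 of 2253 macrophages. With monocytes set to 3 counts in all, the members were at least 142-fold higher. Cd209e had 26 UMIs in 11 members, Cd209c 15 in 12 and Cd209b 6 in 4, against 1 UMI of Cd209c in monocytes and 2 in macrophages. Since these genes are near copies, the split of reads among them by the authors' counting is uncertain.

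MHC class II genes were higher in the members than in either other set. Of the 10 measured of 11 listed, 5 were at least 2-fold higher than in monocytes and 10 were at least 2-fold higher than in macrophages, beside 7.25% and 8.16% of all genes. Median log2 ratios were 1.01 against monocytes and 1.48 against macrophages, and the median against monocytes was 0.65 when cells that met both limits were kept in both sets. The summed class II level ran from 707 through 59176 to 99103 CPM per member, from 0 through 13599 to 142703 CPM per monocyte and from 373 through 22114 to 114323 CPM per macrophage. The ranges overlapped, but the lower quartile was 44526 CPM in members, against 1786 CPM in monocytes and 7150 CPM in macrophages.

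H2-O restrains the peptide editor H2-DM in B cells and dendritic cells, and its chain H2-Oa had the highest ratio of the list in both comparisons. H2-Oa ran from 0 through 86.1 to 1037 CPM per member and reached 237 CPM in sum, against 5.80 CPM in monocytes and 1.13 CPM in macrophages, with free RNA at 7.30 CPM. It was 40.8 times the monocyte level (28.6 to 60.3) and 209 times the macrophage level (165 to 267). H2-Ob had 89.9 CPM in members, against 4.53 CPM in monocytes and 4.88 CPM in macrophages. Of the H2-DM chains, H2-DMb2 was 13.9 times the monocyte level (12.02 to 16.2), whereas H2-DMb1 was 1.22 times (1.17 to 1.28) and H2-DMa 1.51 times. H2-DMb1 and H2-DMb2 are neighbouring near copies, so reads may have been split between them, and their separate values are uncertain. Ciita, the coactivator that switches class II genes on, had 248 CPM in members, against 101 CPM in monocytes and 29.7 CPM in macrophages. The chains that form the peptide-binding molecules differed less, with H2-Ab1 at 9267 CPM in members, against 4649.8 and 3402 CPM. The invariant chain Cd74 was 1.81 times the monocyte level and 2.14 times the macrophage level.

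Class II promoters carry a Y box, whose core letters are read by the factor NF-Y, and an X box before it, read by RFX, on which CIITA is assembled. The stretches below are from RefSeq promoters (GRCm38.p6) of H2-Oa, H2-Ob and H2-DMb2, which had the highest ratios, of H2-DMb1, the near copy of H2-DMb2, and of 1 chain each of H2-A and H2-E, shown so that genes with high and low ratios can be compared. Each is written 5′ to 3′ on the strand of its gene, and capitals mark GATTGG, the Y box core.
H2-Oa (chr17:34092275-34092360, plus strand): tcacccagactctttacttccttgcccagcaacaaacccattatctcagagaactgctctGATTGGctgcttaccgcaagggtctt
H2-Ob (chr17:34238787-34238872, plus strand): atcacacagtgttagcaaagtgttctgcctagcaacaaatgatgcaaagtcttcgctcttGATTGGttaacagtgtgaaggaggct
H2-DMb2 (chr17:34145098-34145183, plus strand): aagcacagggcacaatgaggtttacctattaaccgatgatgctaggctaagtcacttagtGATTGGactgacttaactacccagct
H2-DMb1 (chr17:34153069-34153154, plus strand): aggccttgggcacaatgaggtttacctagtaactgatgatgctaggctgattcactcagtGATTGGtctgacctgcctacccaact
H2-Aa (chr17:34287847-34287932, minus strand): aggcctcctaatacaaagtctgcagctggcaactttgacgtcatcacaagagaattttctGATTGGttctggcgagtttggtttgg
H2-Eb1 (chr17:34305747-34305832, plus strand): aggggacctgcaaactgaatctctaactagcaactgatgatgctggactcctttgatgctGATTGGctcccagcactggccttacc

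GATTGG was present on either strand in at least 1 promoter of 8 of 8 listed class II genes that had an entry. H2-DMa had it in 1 of 2 promoters. Counted by promoter and not by gene, GATTGG was in 16.1% of all 32851 promoters of the table. It was not among the letters of the Cd209a, Kmo, Flt3 and Zbtb46 promoters. Genes with a ratio of 40.8 (H2-Oa) and of 1.22 (H2-DMb1) against monocytes both held it, so the match does not separate the genes that differed most from those that differed least.

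**Figure D2:**
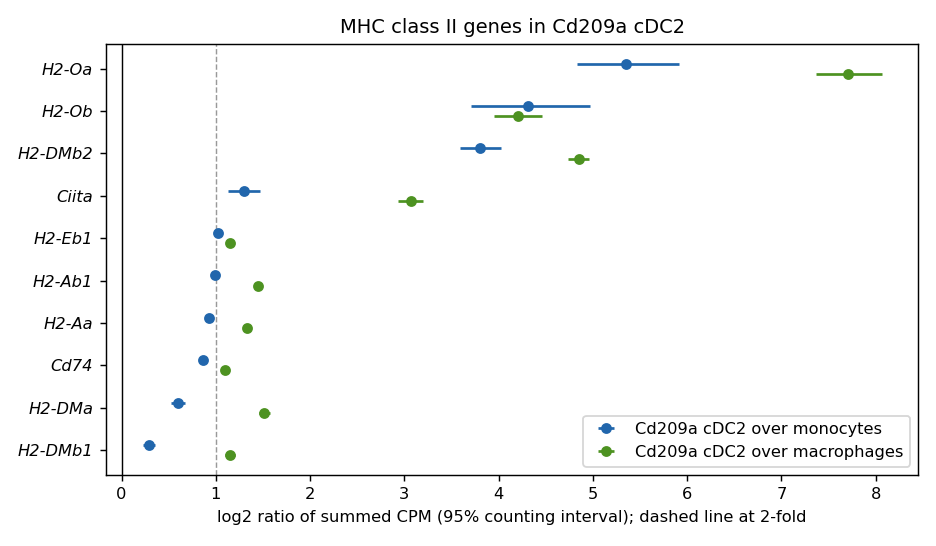
Log2 ratio of summed CPM for 10 MHC class II genes, Cd209a cDC2 over monocytes and over macrophages, with 95% counting intervals and a dashed line at 2-fold. H2-Oa, H2-Ob and H2-DMb2 lie to the right of all the others in both comparisons.

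Genes that process antigen in endosomes were lower in the members. Of 9 measured, 4 were at least 2-fold lower than in monocytes and 6 than in macrophages, beside 9.17% and 16.5% of all genes, and none was 2-fold higher. Lgmn, a cysteine protease that cuts after asparagine, had 84.6 CPM in members, against 648 CPM in monocytes and 2293 CPM in macrophages, with free RNA at 1489.9 CPM. Ctsc, the activator of granule proteases, was 0.237 times the monocyte level and Ctsb, a lysosomal protease, 0.308 times. Ctss, the protease that trims the invariant chain, had 1602 CPM in members, against 3093 CPM in monocytes and 3590.1 CPM in macrophages. The MHC class I list differed little, with none of 12 genes past 2-fold in either comparison and medians of -0.09 and 0.15 on the log2 scale.

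Genes of costimulatory and inhibitory ligands, taken as 1 list, had a median log2 ratio of 0.08 against monocytes. Of 12 genes, 2 were 2-fold higher and 4 lower (7.25% and 9.17% of all genes). Against macrophages the median was 0.65, with 4 of 12 higher and 2 lower (8.16% and 16.5% of all genes). Icosl, the ligand of ICOS, was 3.39 times the monocyte level (2.59 to 4.44) and 3.37 times the macrophage level, and Pdcd1lg2 (PD-L2) 2.05 times the monocyte level on 37 UMIs. Cd86, named after its values were seen, had 223 CPM in members, against 206 CPM in monocytes and 79.6 CPM in macrophages. Vsir (VISTA), an inhibitory ligand, had 69.98 CPM in members, against 168 CPM in monocytes and 145 CPM in macrophages. Tnfsf4 and Cd70 had no UMI in members.

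In the kynurenine pathway, which breaks tryptophan down, 3 genes were measured against monocytes and all were at least 2-fold higher (7.25% of all genes). Against macrophages 3 of 5 were at least 2-fold higher (8.16% of all genes), while Kyat3 and Kyat1 had log2 ratios of -0.73 and -0.63. Kmo, among the higher genes in both comparisons, was used to choose the cells. Kynu, which cleaves kynurenine, had 45.2 CPM in 54 members, against 3.63 CPM in monocytes and 0.602 CPM in macrophages, and was 12.5 times the monocyte level (7.66 to 21.2). Haao, which acts after it, was 2.62 times the monocyte level (1.78 to 3.87). Of the entry enzymes, Ido1 had 1 UMI in members, and Ido2 and Tdo2 had none, for which the floor of 3 counts allowed 1.33 CPM.

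Chemokine genes were mostly lower in the members, with 8 of 18 at least 2-fold lower than in monocytes and 12 of 18 lower than in macrophages (9.17% and 16.5% of all genes). Ccl7, Ccl12 and Ccl2, which attract monocytes, showed this, with Ccl7 at 19.9 CPM in members, against 249 CPM in monocytes and 1392 CPM in macrophages. Ccl17 and Ccl22, the ligands of CCR4, were the 2 that were at least 2-fold higher in both comparisons. Ccl17 had 229 CPM in members, against 7.62 CPM in monocytes and 3.88 CPM in macrophages, a ratio of 30.1 to monocytes (22.0 to 42.3). It was found in 21 members only, and 79.7% of its 518 UMIs came from 3 cells. Without the member that held 40.5% of them it had 138 CPM, a log2 ratio of 4.18 to monocytes. Ccl22 had 31.4 CPM from 13 members, against 3.45 CPM in monocytes and 1.36 CPM in macrophages, with free RNA at 11.4 CPM. Of its UMIs, 63.4% came from 1 member, and without that member the level was 11.7 CPM and the log2 ratio 1.76 to monocytes and 3.10 to macrophages. Of the cytokines, Il12a, Il12b and Il23a had no UMI in members, while Il1b, named after its values were seen, had 381 CPM, against 631 CPM in monocytes and 58.4 CPM in macrophages.

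Of 18 cytokine and growth factor receptors, 2 were at least 2-fold higher and 4 lower than in monocytes (7.25% and 9.17% of all genes). Of 17 measured against macrophages, 4 were higher and 4 lower (8.16% and 16.5% of all genes). Flt3, which was used to choose the members, was among the higher genes in both comparisons. Csf1r, the receptor for macrophage colony-stimulating factor, had 113 CPM in members, against 547 CPM in monocytes and 390 CPM in macrophages, and Csf3r, the receptor for the granulocyte factor, had 4.87 CPM, against 73.1 and 27.5 CPM. Csf2rb, the shared chain of the receptors for GM-CSF and IL-3, had 198 CPM in members, against 225 CPM in monocytes and 59.3 CPM in macrophages. The Fc receptors were lower, with 5 of 6 at least 2-fold lower than in monocytes and 6 of 6 than in macrophages (9.17% and 16.5% of all genes), such as Fcgr3 at 108 CPM in members, against 576 and 593 CPM. Clec4e, a lectin receptor, had 10.6 CPM in members, against 188 CPM in monocytes and 17.4 CPM in macrophages. Tgfbr1, a receptor for TGF-beta, was 0.136 times the monocyte level and 0.0829 times the macrophage level.

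Maf, a transcription factor of macrophages, had 3.10 CPM in members, against 60.8 CPM in monocytes and 139.8 CPM in macrophages. Nr4a3, an early response factor, was 6.94 times the monocyte level (5.01 to 9.75) and was named after its values were seen. The monocyte list had 10 of 13 genes at least 2-fold lower in members than in monocytes, with 2 of the list used to choose the monocytes (9.17% of all genes were 2-fold lower). Against macrophages 7 of 12 were higher and 3 lower (8.16% and 16.5% of all genes), with a median log2 ratio of 1.61. Ly6c2 and Ccr2 were among the 7, and cells that met the limits on both were left out of the macrophages. Without the members that met these limits the median was -0.17. Lyz2, the lysozyme of myeloid cells, had 2336 CPM in members, against 22729 CPM in monocytes and 5848 CPM in macrophages. Chil3 had 3.54 CPM in members, against 740 CPM in monocytes. S100a4, a calcium-binding protein, was the 1 gene of that list above the monocyte level, at 3205 CPM in members, against 2269 CPM in monocytes and 217 CPM in macrophages. Type I interferon response genes had a median log2 ratio of -0.75 against monocytes and 0.81 against macrophages, and interferon gamma response genes -0.63 and -0.11. The list of lipid and lysosome genes had a median of -1.20 against monocytes and -2.36 against macrophages. That of glycolysis and hypoxia genes, which included Arg1, had -0.69 and -1.05.

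Genes of the cell cycle lay between the sets in summed level, but not in the typical cell. Their sum per cell had a median of 91.1 CPM in members and 93.7 CPM in monocytes, against 819 CPM in macrophages. Of 14 genes, 13 were at least 2-fold higher than in monocytes, with a median log2 ratio of 2.81, and 12 were at least 2-fold lower than in macrophages, with a median of -1.12. Of all genes, 7.25% and 16.5% differed in these directions. Top2a, which untangles DNA in division, had 104 CPM in members, against 5.62 CPM in monocytes and 217 CPM in macrophages, with free RNA at 141 CPM. In the 17 members chosen by at least 5 cell cycle UMIs after thinning it had 412 CPM, against 11.0 CPM in the other 104.

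**Figure D3:**
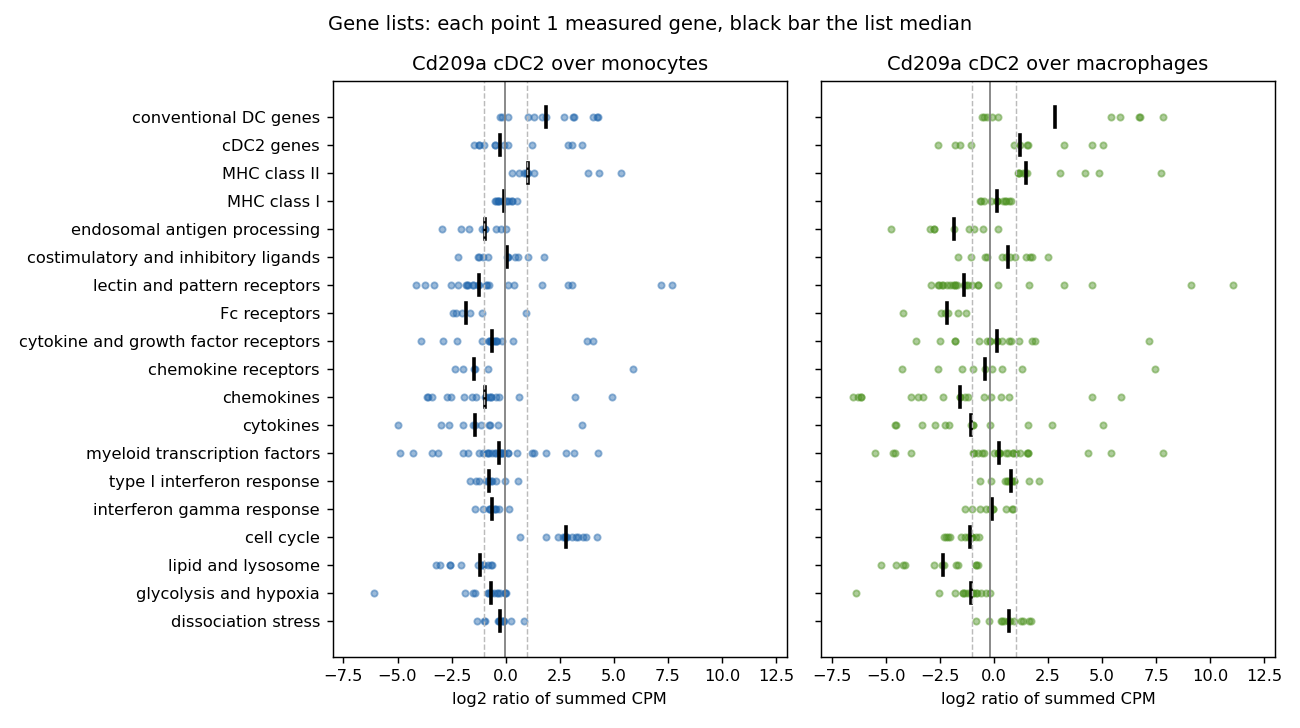
Log2 ratio of summed CPM for every measured gene of 19 lists, Cd209a cDC2 over monocytes on the left and over macrophages on the right; black bars are list medians, the grey line is the median of all genes and dashed lines mark 2-fold. Conventional dendritic cell and class II genes lie to the right, Fc receptor, lysosome and chemokine genes to the left, and cell cycle genes on opposite sides of 0 in the panels.

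Over all genes, 642 were at least 2-fold higher and 812 at least 2-fold lower in members than in monocytes, and 856 higher and 1728 lower than in macrophages. Beyond the lists, the highest ratios to monocytes included Plet1, a surface protein of epithelia and of some tissue dendritic cells, with 108.5 CPM in 22 members, against 0.544 CPM in monocytes and 0.616 CPM in macrophages. Cd7, an immunoglobulin-family receptor of lymphocytes, had 211 CPM in 71 members, against 1.81 CPM in monocytes and 0.701 CPM in macrophages. Klrd1 (CD94), the partner chain of NKG2 receptors, had 395 CPM in 95 members, against 9.79 and 2.06 CPM. Ncr1, Klrb1c, Prf1 and Klra8, genes of natural killer cells, had no UMI in the members, and Gzma had 1. Ifitm1 had 1215 CPM, against 24.1 CPM in monocytes, and Ffar2, a receptor for short-chain fatty acids, 83.7 CPM in 60 members, against 2.36 and 0.154 CPM.

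Cdh1 (E-cadherin) had 105 CPM in 63 members, against 3.45 CPM in monocytes, and Ctnnd2, a catenin, 62.0 CPM in 62 members, against 0.907 CPM. Epcam had 92.1 CPM in 39 members, against 3.99 CPM in monocytes and 0.182 CPM in macrophages, and 29.8% of its UMIs came from 3 members. Epcam and Cd207 together mark Langerhans cells of the skin, and Cd207 had no UMI in any member. The lowest ratios were to Chil3, Tmem37, Vcan, Msr1 and C5ar1 against monocytes, and to Tmem37, Lipg, Ms4a7, Olfml3 and Bhlhe41 against macrophages. Ms4a7 had 11.1 CPM in members, against 1568 CPM in macrophages and 1083 CPM in free RNA.

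Cells chosen by genes of other dendritic cells were compared by level only. They were 38 cells with at least 3 UMIs of Xcr1 and Clec9a and 40 with at least 5 of Ccr7 and Fscn1. Each had fewer than 3 CD3 UMIs and less than 2000 CPM of C1q genes, and cells that met both conditions were in neither set. No limit on genes of other cell types was set. The Ccr7 and Fscn1 cells ran from 1837 to 94557 gene UMIs. Zbtb46 was alike in the 3 sets within counting error, at 31.4 CPM in the members (24.6 to 39.7), 40.0 CPM in the Xcr1 and Clec9a cells (28.9 to 54.1) and 34.2 CPM in the Ccr7 and Fscn1 cells (22.2 to 50.6). Flt3 was lower in the members, at 57.1 CPM, against 158 and 125 CPM. Napsa was higher in the members, at 1138 CPM, against 516 and 458 CPM, and so was H2-Oa, at 237 CPM, against 94.4 and 103 CPM. H2-Ab1 had 9267 CPM in the members and 9569 CPM in the Xcr1 and Clec9a cells, and 2811 CPM in the Ccr7 and Fscn1 cells. Clec10a had 373 CPM in the members, against 20.97 and 9.59 CPM. Irf8, the factor of the type 1 lineage, had 245 CPM in the members, against 2229 and 626 CPM. In the 114 members without Siglech it had 145 CPM.

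Of the 121 members, 7 carried genes of plasmacytoid dendritic cells, against the label. They carried 13 to 27 UMIs each of Siglech, a receptor of plasmacytoid dendritic cells, and the other 114 carried none. Their Siglech level was 1384 CPM, and that of Ly6d, a lymphoid precursor marker, 3741 CPM, against 0 UMIs of both in the other members. Ccr9, a homing receptor of plasmacytoid cells, had 995 CPM in these 7 cells, against 2.77 CPM in the other members, and the transcription factors Irf8 and Tcf4 were 17.8 and 13.3 times higher. The same 7 cells had no UMI of Zbtb46 or Ciita, and class II genes were lower in them by a median of -1.98 on the log2 scale. They passed the rule with 5 to 9 UMIs of Cd209a, Kmo and Flt3. Without them, the class II median was 1.06 against monocytes and 1.51 against macrophages. Genes past 2-fold in either direction numbered 1472 against monocytes and 2573 against macrophages, beside 1454 (16.4% of genes measured) and 2584 (24.6%) with them.

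Another 30 members, none with Siglech, also met the Ly6c2 and Ccr2 limits that define the monocytes. Beside the 84 members that met neither condition, they had 8065 CPM of Lyz2, against 887 CPM, and 2299 CPM of Plac8, against 658 CPM. Cebpb, a factor of monocytes, was 5.15 times higher (4.26 to 6.24). H2-Ab1 ran from 0 to 13675 CPM per cell in the 30. The cell of the 30 with the most Lyz2, at 49386 CPM, had 0 CPM of H2-Ab1. Dendritic cell genes were found in the summed counts of both kinds, which do not show how single cells differed. Zbtb46 had 23.4 CPM in the 30 cells, against 35.1 CPM in the 84 (ratio 0.667, 0.305 to 1.31), Clec10a 370 CPM, against 379 CPM, and Cbfa2t3 222 CPM, against 253 CPM. Class II genes were lower in the 30 cells by a median log2 ratio of -0.67, and most so for H2-Oa, at 60.9 CPM, against 290 CPM. Kit had 4.68 CPM, against 33.4 CPM. Ccl17 had 1 UMI and Plet1 none in the 30 cells, while Itgae (CD103) had 7.02 CPM, against 62.1 CPM. Without all 32 members that met the monocyte limits, 2 of them Siglech cells, the class II medians were 1.14 against monocytes and 1.56 against macrophages.

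**Figure D4:**
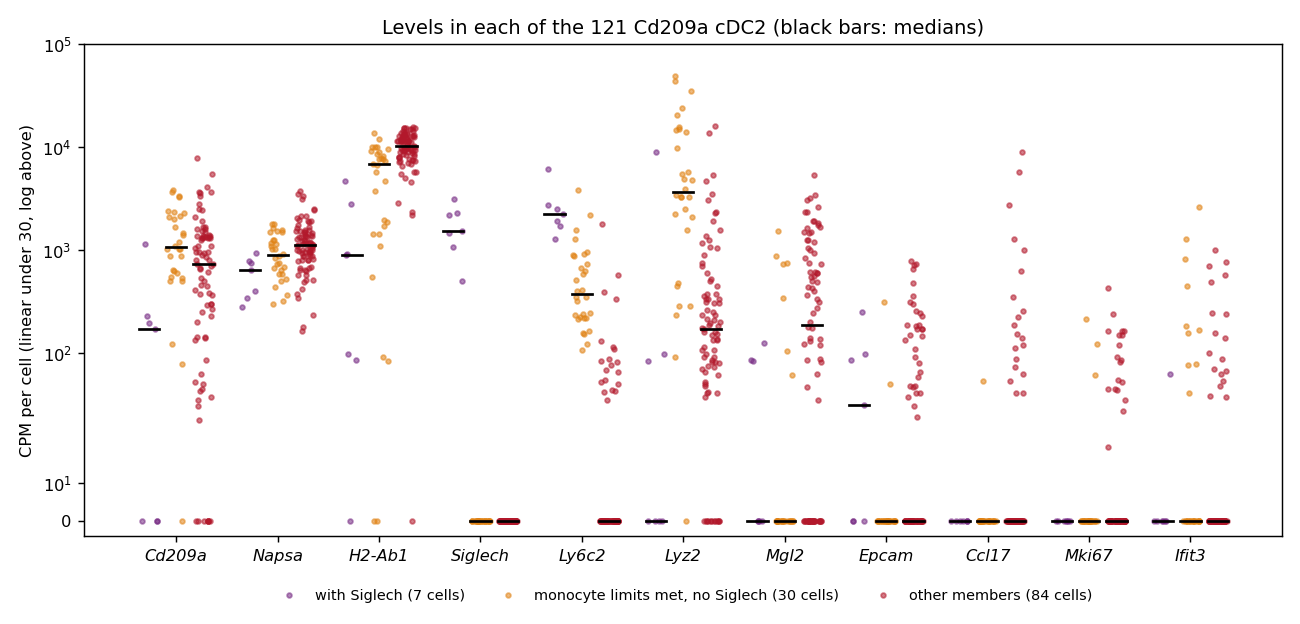
CPM per cell of 11 genes in the 121 Cd209a cDC2, as 7 cells with Siglech, 30 cells without it that met the monocyte limits and 84 others; the axis is linear under 30 CPM and logarithmic above, and black bars are medians. Siglech is confined to the 7 cells that define the first kind, Lyz2 is higher in most of the 30 cells than in the 84, and Ccl17 is high in a few of the 84.

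Further variation, described after its values were seen, followed Mgl2, interferon genes and the cell cycle. Among members without Siglech, 53 had a UMI of Mgl2 after thinning to 5000 UMIs and 61 had none. The 30 members that met the monocyte limits were kept in, with only 6 of them among the 53. This split therefore overlaps theirs, and the part of that overlap in the differences below was not tested. Ccl17 had 402 CPM in the 53 cells, against 18.5 CPM in the 61, where 1 cell held all its UMIs, Plet1 180 CPM, against 21.8 CPM, and Epcam 143 CPM, against 26.1 CPM. Class II genes were slightly higher in the 53 cells, with H2-Oa at 301 CPM, against 168 CPM. Plac8 was lower, at 381 CPM, against 1797 CPM, and so was Cd7, at 104 CPM, against 334 CPM. Clec10a did not go with Mgl2, at 315 CPM in the 53 cells, against 461 CPM. Cell cycle genes were higher in the 53 cells by a median log2 ratio of 1.31, with Top2a at 160 CPM, against 38.1 CPM. The 53 cells had a median of 22193 UMIs, against 13427 UMIs in the 61, and the part of depth in these differences was not tested beyond the thinning.

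In 23 members without Siglech, 8 of which met the monocyte limits, the type I interferon genes summed to at least 10 UMIs after thinning. Beside the other 91, which the choice itself set lower in those genes, they had 2298 CPM of Cxcl9, a chemokine induced by interferon gamma, against 310 CPM, and 495 CPM of Gbp2, against 81.2 CPM. Ccl17 went the other way, at 28.9 CPM, against 289 CPM, as did Plet1, at 16.8 CPM, against 136 CPM. The Ccl17 levels rest on few cells, with 12 UMIs in the 23 and 41.5% of the UMIs of the 91 in 1 cell. The share of cells with a UMI of Ccl17 differed much less than its level. The part of these few cells in the Ccl17 difference was not tested. H2-Ab1 was 1.01 times the level of the other 91 (0.975 to 1.05). The 17 members with at least 5 cell cycle UMIs after thinning included none with Siglech and 2 that met the monocyte limits. They had 307 CPM of Lyz2, against 2951 CPM in the other 104. The 104 held most of the 30 members that met the monocyte limits, whose Lyz2 level was 8065 CPM, and the 7 Siglech members. Median depth was 32925 UMIs in the 17 cells, against 14941.5 UMIs in the 104. The part of composition and depth in the differences was not tested. Zbtb46 had 41.9 CPM in the 17 cells, against 28.3 CPM in the 104 (ratio 1.48, 0.854 to 2.50). Among members without Siglech, the 23 led by Kmo or Flt3 had 1802 CPM of Cxcl9, against 366 CPM in the 88 led by Cd209a. Ccl22 had 109.8 CPM in the 23, against 9.93 CPM, but 1 cell held 81.8% of its UMIs.

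Natural killer cell genes summed to 1 UMI over all members, melanoma genes to 27 UMIs in 13 cells, and neutrophil genes to 11 UMIs, all of Csf3r. T cell genes summed to 59 UMIs in 17 members, with Trbc2 at 0 and 1242 CPM in the highest member. Of them Cd8b1 had 30 UMIs in members at 13.3 CPM, against 0.363 CPM in monocytes, with free RNA at 30.7 CPM, and 6.68 CPM without the member that held 50.0% of these UMIs. Macrophage genes summed to between 74.0 and 5650 CPM per member with a median of 663 CPM, against a median of 26485.5 CPM in macrophages, and free RNA held 18449.7 CPM. B cell genes summed to 350 UMIs in 94 members, or 155 CPM, against 103 CPM in monocytes and 212 CPM in macrophages, with free RNA at 161 CPM. They were Ighm and Cd79b only, with Cd79a and Ms4a1 at 0. The part of free RNA in low levels was not tested beyond its subtraction.

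A spatial barcode was given to 65 of 121 members by the rule of at least 10 counts and 2 times the next barcode, of which 10.8% had ZC1, 21.5% ZC2 and 67.7% ZC3, against 94.6% with ZC3 among 204 monocytes and 99.1% among 1413 macrophages. By shares relative to those in free barcodes, 94 members were assigned, with 46.8% in ZC2 (36.4% to 57.4%), against 31.2% of monocytes and 20.1% of macrophages. Summed over all members, the barcode counts were 13.5% ZC1, 29.8% ZC2 and 56.6% ZC3, close to the 15.6%, 26.4% and 58.0% of free barcodes. The 2 rules thus gave different leading barcodes, and where the members lay was not tested. The regions behind the barcodes are not stated in the labels.

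**Figure D5:**
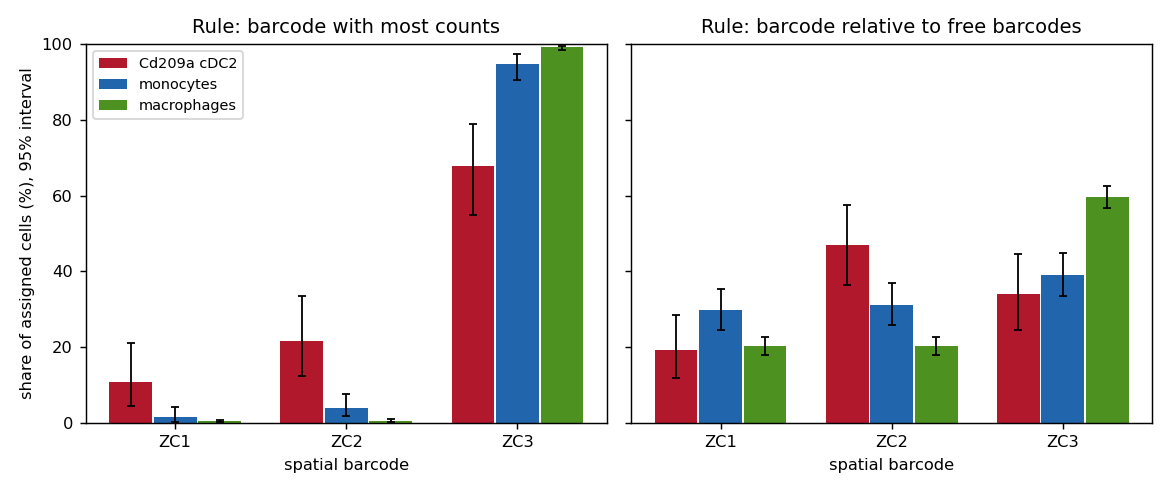
Share of assigned cells in percent by spatial barcode, with exact Clopper-Pearson 95% intervals, for Cd209a cDC2, monocytes and macrophages under both assignment rules. ZC3 holds the most members under the first rule and ZC2 under the second.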

How the data were processed

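Counts were taken from the authors' deposited matrix, which held UMI counts of genes and of 3 spatial barcodes for 6794880 unfiltered barcodes, and per the submitters' processing notes was made with Cell Ranger 4.0.0 on mm10. Annotation and aligner settings: not given in the sources used here. All values in it were whole numbers. The feature and barcode names deposited with the counts (unit other) gave symbols and cells. Cells were kept with at least 1000 gene UMIs, 500 genes and at most 10% mitochondrial UMIs. Levels are counts of a set divided by all its gene UMIs, scaled to 1000000 (CPM), with exact Poisson intervals; ratios carry exact conditional binomial intervals. A gene counted as measured when both sets together held at least 30 UMIs and each was expected to hold 3, and a set at 0 was put at a floor of 3 counts. Genes named were the 12 highest and 12 lowest ratios of each comparison among genes with 100 UMIs and found in 10% of cells of the higher set, without genes the rules used, Gm and Rik models, mitochondrial and ribosomal protein genes. From every list the 2 at either end were added, and the given marker, conventional dendritic cell, cDC2, class II and kynurenine genes could all be named. Genes outside this rule, and the splits of the members by Siglech, the monocyte limits, Mgl2 and interferon genes, were chosen after their values were seen, as were genes compared within those splits. The members and lists were chosen with earlier results of these data known. Duplicate symbols used the ID with the most UMIs, and 350 of 352 listed genes were analysed here. Promoters were matched by symbol to RefSeq. The code was tested on simulated data. Computation used numpy 2.4.6, pandas 2.3.3 and scipy 1.17.1 in Python 3.11.15, and figures matplotlib 3.10.9.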

Additional observations from a re-analysis of the deposited data

How the results depend on the processing

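No paired analysis was possible because the 2 samples are libraries of the same cells, and no replicate could be left out. In all, 19 alternatives were run, 3 of them, which left out the Siglech members, those that met the monocyte limits or the member with most UMIs of Ccl17, Ccl22 or Cd8b1, added after the data were examined. They changed the rule, the limits on cells, the comparison sets, the weighting of cells, free RNA, the gene filter, the thinning and the barcode rule. The number of members lay between 83 and 154. Counts of genes past 2-fold stayed within 1.5 times of 1454 against monocytes and 2584 against macrophages, save that requiring 100 UMIs over both sets left 803 against monocytes. The class II median of 1.01 against monocytes was 0.65 with cells of both limits kept in both sets, 1.17 with cells weighted equally, 1.06 without the Siglech members and 1.14 without those that met the monocyte limits. The median of 1.48 against macrophages was 1.40 with cells kept in both sets and 1.27 with equal weights. The relative barcode rule moved ZC2 to 46.8% and ZC3 to 34.0%.

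With at least 10 rule UMIs, 7 values changed sign. Against monocytes, Cox6a2 became -3.09, Ly6d -3.05, Runx2 -0.67 and Siglech -1.55. Against macrophages, Cox6a2 became -4.19, Runx2 -0.30 and the conventional dendritic cell median -0.21. All 7 Siglech members had fewer rule UMIs than this and left the set, and 2 of them that met the monocyte limits then counted as monocytes. Siglech and Ly6d had no UMI in the members left, so their values are bounds set by the floor of 3 counts. Without members that carried markers of other cells, Hspa1a became 0.045, Hspa1b 0.34 and Runx2 -0.47 against monocytes, and Cox6a2 -1.60, Runx2 -0.41 and the same median -0.43 against macrophages. With no CD3 limit, Cd8b1 became -2.52 and Ltb -0.20 against monocytes. Cadm1 became 0.34 against monocytes with free RNA subtracted. Cox6a2 became -0.86 against macrophages with at most 5% mitochondrial UMIs and -4.64 without the Siglech members, and the monocyte list median became -0.17 against macrophages without members that met the monocyte limits. Apart from the construction of each alternative, the cause was not tested. Of 382 gene ratios followed, 266 were past 2-fold, and among 3903 recomputed values of these 16 reversed, in 9 genes. Low genes such as Zbtb46, Kit and Irf4 rest on few UMIs per cell, and with 1 tumour library no interval covers biological variation.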
